A study of Mus musculus with 14 samples.

Results

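The measurements below concern 10 mouse genes of the germline, *Asz1*, *Mael*, *Stk31*, *Piwil2*, *Tdrd1*, *Ddx4*, *Dazl*, *Sycp1*, *Sycp3* and *Brdt*, which somatic cells keep silent through DNA methylation. They were followed in E4.0 blastocysts made by nuclear transfer or by *in vitro* fertilization (IVF). The genes were chosen by name, and the array holds them among 27962 gene names, with 13 of its 41174 gene probes. The question was which of them are active in IVF blastocysts, and whether clones leave them inactive as they do *Asz1*.

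The cloned embryos came from cumulus cells, the somatic cells that surround the oocyte, and were female. In 4 of them the donor cell was joined to the enucleated oocyte by cell fusion, and in another 4 the donor nucleus was injected. The controls were IVF embryos, 3 male and 3 female, and all embryos were cultured in KSOM medium to the blastocyst stage. Neither the mouse strain nor the age or genotype of the donors is given in the labels for these arrays. The methods give BDF1 oocytes, BDF1 embryos as IVF controls, and as cumulus donors superovulated adult BDF1 females with 1 *Xist* knockout allele, without naming the E4.0 blastocysts. Amplified RNA was hybridized to 1-color arrays, and levels are given as log2 of the quantile-normalized intensity, with a floor of 16 that reads 4 on this scale. Nothing says that the embryos of a group came from separate sessions, so the p-values measure only the spread between these samples.

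Each group was hybridized on a slide of its own, and the clone arrays were read with another scanner and another version of the image software than the IVF arrays. Slide, scanner and software therefore cannot be told apart from cloning in any comparison of clones with IVF embryos. The processed signal was below 0 for 0 spots on each clone array and for 6790 to 9981 of 43379 spots on each IVF array. Signals near the floor were thus not made alike in clones and IVF embryos, and the effect on dim probes was not tested. Between 57.4% and 65.2% of the spots were well above background on each array. The blastocyst label was checked against lineage markers, and all 6 trophectoderm genes and all 5 epiblast genes measured were well above background on all 14 arrays. Of 6 primitive endoderm genes, 5 or 6 were well above background on each IVF array. On each clone array 2 to 5 were, and *Foxa2* was on none.

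Primordial germ cells and spermatocytes use these genes for a pair of tasks. The products of *Asz1*, *Mael*, *Tdrd1*, *Ddx4*, *Piwil2* and probably *Stk31* gather in nuage, the cytoplasmic granules in which piRNAs are made and transposons are silenced, whereas *Sycp1* and *Sycp3* encode parts of the synaptonemal complex that holds paired chromosomes together in meiosis. *Dazl* encodes an RNA-binding protein of germ cells, and *Brdt* a bromodomain protein that reads acetylated histones in the testis. Promoters of such genes are commonly rich in CpG and methylated in somatic cells, and the blastocyst is the stage at which methylation of the genome is low.

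DNA methylation was not measured here, but the promoters on which it acts can be shown. The RefSeq promoter table (GRCm38.p6) holds 12 promoters of 9 of the genes, each with 250 bases before and 50 bases after the transcription start. *Piwil2* had no entry. Counted over the whole window, *Asz1* had 17 CpG dinucleotides, *Mael* 24, *Sycp1* 21 and *Sycp3* 15, against a median of 7 in 32851 promoters. Of these promoters 68.6% had fewer than *Asz1*, 80.0% fewer than *Mael*, 75.2% fewer than *Sycp1* and 65.4% fewer than *Sycp3*. Among the first starts of the 9 genes the count ran from 15 in *Sycp3* to 38 in *Ddx4*, and a further start of *Tdrd1* had 3. The 250 bases before the start are printed for *Asz1* and *Mael*, the genes with the largest falls in clones, and for *Sycp1* and *Sycp3*, which were higher in clones. They are written 5′ to 3′ on the strand of the gene with each CpG in capitals.
*Asz1*, chr6:18109062-18109311, minus strand: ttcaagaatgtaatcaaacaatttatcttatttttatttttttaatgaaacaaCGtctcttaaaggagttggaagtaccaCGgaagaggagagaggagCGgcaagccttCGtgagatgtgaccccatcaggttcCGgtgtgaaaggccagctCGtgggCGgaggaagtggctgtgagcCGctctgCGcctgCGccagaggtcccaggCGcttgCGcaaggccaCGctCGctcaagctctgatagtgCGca
*Mael*, chr1:166238745-166238994, minus strand: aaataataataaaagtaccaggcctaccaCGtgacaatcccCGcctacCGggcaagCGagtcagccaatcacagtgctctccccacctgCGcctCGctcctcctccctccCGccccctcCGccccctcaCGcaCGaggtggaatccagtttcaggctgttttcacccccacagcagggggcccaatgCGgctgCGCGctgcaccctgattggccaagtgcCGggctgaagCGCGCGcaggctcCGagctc
*Sycp1*, chr3:102936101-102936350, minus strand: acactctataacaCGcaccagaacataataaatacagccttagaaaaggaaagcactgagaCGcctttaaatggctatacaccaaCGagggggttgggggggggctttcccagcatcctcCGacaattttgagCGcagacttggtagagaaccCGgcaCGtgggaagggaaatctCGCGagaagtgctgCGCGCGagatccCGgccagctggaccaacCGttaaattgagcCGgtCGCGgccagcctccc
*Sycp3*, chr10:88459337-88459586, plus strand: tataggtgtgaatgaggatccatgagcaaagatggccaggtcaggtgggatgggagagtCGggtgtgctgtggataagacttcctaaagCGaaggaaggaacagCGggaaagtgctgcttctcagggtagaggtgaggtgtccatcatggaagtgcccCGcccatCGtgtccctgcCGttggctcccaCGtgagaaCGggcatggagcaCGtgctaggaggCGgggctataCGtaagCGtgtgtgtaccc

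A pair of short motifs was searched on both strands of the whole windows. CACGTG, the E-box, is recognized by complexes that repress germline genes elsewhere, and TCCCGC is the core that E2F proteins bind. CACGTG was found in 7.15% of all promoters and in at least 1 promoter of 7 of the 9 genes, all but *Asz1* and *Dazl*. TCCCGC was found in 19.975% of all promoters and in 4 of the 9 genes, *Ddx4*, *Mael*, *Sycp1* and *Sycp3*. The motifs did not overlap each other in any of the 12 windows. CACGTG was thus present in *Mael*, *Stk31*, *Sycp1*, *Sycp3* and *Tdrd1*, and the promoter of *Asz1* held neither motif. A link between the motifs and the differences in clones was not tested. A match of letters does not show that a protein was bound.

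Most of the 10 genes were detected in IVF blastocysts. For 8 of the 10 genes at least 1 probe was well above background on all 6 IVF arrays: *Asz1*, *Mael*, *Stk31*, *Piwil2*, *Ddx4*, *Dazl*, *Sycp1* and *Sycp3*. Of all gene names on the array 49.1% met this criterion. Some of the 8 came near the floor on single IVF arrays, down to 5.22 for *Sycp1* and 5.42 for *Ddx4*. Each of the *Brdt* probes was well above background on 3 of the 6, but only male IVF embryo 3 was common to both. *Tdrd1* was well above background on 1 of the 6, by its brighter probe. In clones, 7 of those 8 genes were well above background on all 8 arrays, and *Asz1* was well above background on none. In these bulk samples fewer cells with a transcript cannot be told apart from less transcript per cell.

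Clones did not shift the 10 genes in 1 direction. Over all 14 arrays, with limma's fit across all tested probes and Benjamini-Hochberg adjustment, 3 of the 12 tested probes were lower in clones (*Asz1*, *Mael* and *Stk31*) and 3 were higher (*Tdrd1*, *Sycp1* and *Sycp3*). Of all tested probes 13.1% were lower and 9.16% higher in that comparison. These shares depended on level. Below an IVF mean of 6, 4.33% were lower and 4.9% higher, and at 12 or more 23.7% and 13.2%. *Asz1* was included for its known silence in clones, so its call was not open in this or any later count against IVF embryos. The median difference over the brightest probes of the 10 genes was 0.65 on the log2 scale, against -0.07 over all probes. The 13th probe, the dimmer of the *Tdrd1* pair, stayed at background on all 14 arrays and was not tested.

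**Figure D1:**
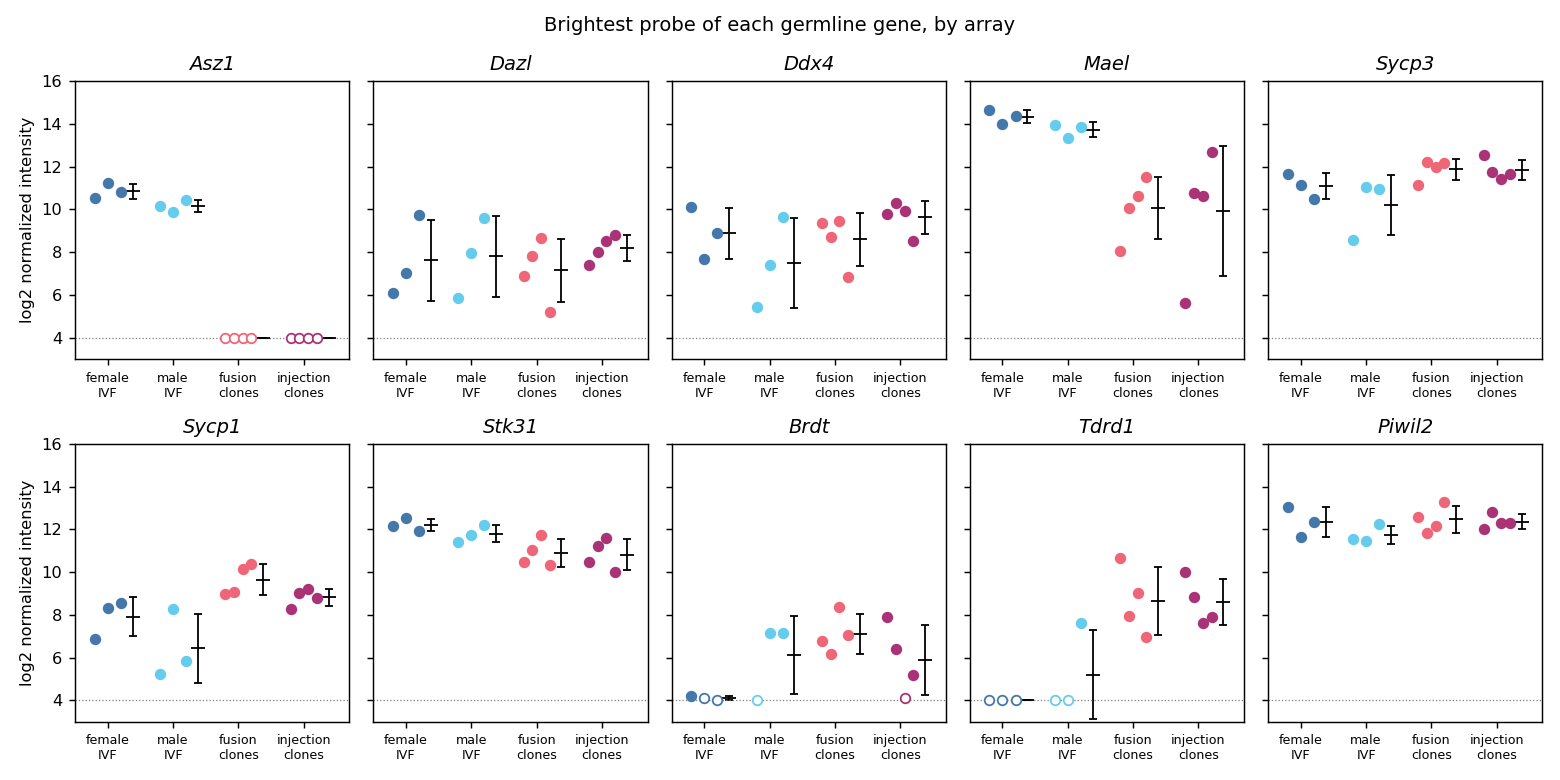
Level of the brightest probe of each of the 10 genes, on the log2 scale, on each of the 14 arrays. Filled points were well above background and open points were not, bars give the group mean ± SD, and the dotted line marks the floor at 4. *Asz1* sits on the floor in all 8 clones, *Mael* spreads over more than 7 log2 units there, and *Tdrd1* shows the opposite pattern to *Asz1*.

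*Asz1*, a nuage scaffold protein needed for piRNA production, was silent in every clone. In female IVF embryos its level was 10.51, 11.22 and 10.83, and in male IVF embryos 10.17, 9.88 and 10.42. It was at the floor and not well above background in all 4 fusion clones and all 4 injection clones, so the clone and IVF ranges were far apart. The probe was at least 101-fold lower in fusion clones than in female IVF embryos (adjusted p = 8.93e-05, limma) and at least 109-fold lower in injection clones (adjusted p = 0.000188, limma). Both comparisons use the same 3 female IVF arrays. Over all 14 arrays the fall was at least 82.5-fold (adjusted p = 6.62e-11, limma). The clone values were all set to the floor (SD 0), so these p-values do not measure the spread among clones. Male and female IVF embryos differed by -0.70 (SE 0.29, adjusted p = 0.648, limma, 3 against 3).

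*Mael*, which encodes the nuage protein maelstrom, was lower in every clone but remained detectable. The IVF embryos lay between 13.34 and 14.64 (median 13.98, n = 6). The fusion clones had 8.07, 10.08, 10.62 and 11.50, and the injection clones 5.61, 10.79, 10.62 and 12.68. All 8 clones were thus below all 6 IVF embryos, which held for 2 of the 12 tested probes, this one and *Asz1*, and for 4.03% of all tested probes, while the spread among clones (SD 2.20) was several times that among IVF embryos (SD 0.44). The difference between clones and all IVF embryos was -4.04 on the log2 scale, or 16.4-fold (SE 0.94, adjusted p = 0.0104, limma). Against female IVF embryos alone it was -4.27 in fusion clones (SE 0.78, adjusted p = 0.0262, limma) and -4.41 in injection clones (SE 1.61, adjusted p = 0.176, limma). The call in fusion clones was lost without any 1 of 4 arrays, fusion clones 2 and 3 and female IVF embryos 1 and 3, with adjusted p from 0.0593 to 0.0709.

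*Stk31*, a kinase-like Tudor-domain protein of the testis, was modestly lower. The clones had a median of 10.76 (range 9.99 to 11.72, n = 8) and the IVF embryos of 12.04 (range 11.41 to 12.51, n = 6). The ranges overlapped only through the male IVF embryos, since the lowest female IVF embryo was at 11.92. The difference was -1.14, or 2.20-fold (SE 0.29, adjusted p = 0.0172, limma over 14 arrays). It was -1.31 in fusion clones (adjusted p = 0.0788, limma) and -1.38 in injection clones (adjusted p = 0.118, limma) against the 3 female IVF embryos.

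Over all 14 arrays the falls were thus at least 82.5-fold for *Asz1*, 16.4-fold for *Mael* and 2.20-fold for *Stk31*. The difference between them was not tested, since *Asz1* was chosen for its silence in clones.

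*Tdrd1*, which encodes a nuage protein that binds PIWI proteins, showed the reverse pattern by its brighter probe. It was at the floor in all 3 female IVF embryos and in male IVF embryos 1 and 2, and at 7.61 in male IVF embryo 3. The fusion clones had 10.66, 7.93, 9.01 and 6.96, and the injection clones 10.01, 8.83, 7.63 and 7.90, and all 8 were well above background. *Tdrd1* was thus at least 24.9-fold higher in fusion clones (adjusted p = 0.0250, limma) and at least 24.1-fold higher in injection clones (adjusted p = 0.0241, limma) than in female IVF embryos. The female IVF values were all set to the floor (SD 0), so these p-values do not measure the spread among female IVF embryos. Over all 14 arrays the difference was 4.01 (SE 0.71, adjusted p = 0.00272, limma). The other *Tdrd1* probe, designed on another transcript record, stood at the floor on all 14 arrays, so that the probes of this gene disagree. The call against female IVF embryos was lost without any 1 of 5 arrays in fusion clones (clones 2 and 3 and each female IVF embryo, adjusted p up to 0.0687) and of 3 in injection clones (clone 2 and female IVF embryos 1 and 3, adjusted p up to 0.0715).

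The remaining nuage genes did not pass the test. *Piwil2*, a PIWI protein that carries piRNAs, ranged from 11.81 to 13.28 in clones and from 11.47 to 13.05 in IVF embryos, and the 95% interval of the difference over 14 arrays was -0.25 to 0.98, with -0.99 to 1.23 in fusion clones and -0.88 to 0.91 in injection clones against female IVF embryos. *Ddx4*, the RNA helicase also called Vasa, ranged from 6.82 to 10.30 in clones and from 5.42 to 10.09 in IVF embryos. Its interval was -0.58 to 2.43 over 14 arrays. Against female IVF embryos alone it was wider, -2.27 to 1.69 in fusion clones and -0.88 to 2.38 in injection clones, so that a change of 2-fold in either direction was not detectable in fusion clones.

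*Sycp1* and *Sycp3* were higher in clones over all 14 arrays, but did not pass against female IVF embryos alone. *Sycp1* was at 6.86, 8.32 and 8.53 in female and at 5.22, 8.26 and 5.83 in male IVF embryos. It reached 8.97, 9.07, 10.16 and 10.38 in fusion clones and 8.29, 9.03, 9.20 and 8.78 in injection clones. All fusion clones were above all IVF embryos, and the injection clones overlapped with the 2 brightest female IVF embryos. The difference over 14 arrays was 2.06, or 4.18-fold (SE 0.48, adjusted p = 0.0107, limma). *Sycp3* was higher by 1.22, or 2.33-fold (SE 0.40, adjusted p = 0.0476, limma), with medians of 11.87 in clones and 11.00 in IVF embryos and overlapping ranges. Clones are female, and against female IVF embryos alone, in the fit of all 4 groups, the differences were 1.33 for *Sycp1* (adjusted p = 0.171, limma) and 0.77 for *Sycp3* (adjusted p = 0.337, limma). The call of *Sycp3* over 14 arrays was also lost with the replicate number as a block (adjusted p = 0.112), with 75th percentile scaling (adjusted p = 0.0560), at a floor of 32 (adjusted p = 0.0591), without the filter on dim probes (adjusted p = 0.0673) and in 10 of the 14 fits that left out 1 array: each without fusion clone 2, 3 or 4, any injection clone, male IVF embryo 1 or female IVF embryo 2 or 3 (adjusted p from 0.0583 to 0.110).

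*Dazl* did not pass the test over 14 arrays by either of its probes. The brighter *Dazl* probe ran from 5.19 to 8.79 in clones and from 5.84 to 9.74 in IVF embryos, and the difference of -0.04 had an interval of -1.70 to 1.61. The dimmer *Dazl* probe was well above background in all 3 female IVF embryos, at 7.20, 4.68 and 6.28, in no male IVF embryo, in fusion clone 3 alone among the fusion clones, at 5.97, and in no injection clone. It was at least 3.92-fold lower in injection clones than in female IVF embryos and did not pass the test (adjusted p = 0.0972, limma), although it did without female IVF embryo 2 (adjusted p = 0.0219, limma) and with all 4 groups in the fit (adjusted p = 0.0439, limma). All 8 clones together were called lower than female IVF embryos by this probe, with -1.81 (adjusted p = 0.0343, limma). Over all 14 arrays the difference was -0.78 (adjusted p = 0.199, limma), and the probe was called there without fusion clone 3 (adjusted p = 0.0478) or female IVF embryo 2 (adjusted p = 0.0376). In male IVF embryos it was at least 4.16-fold lower than in female ones (adjusted p = 0.567, limma).

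The brighter *Brdt* probe was at 4.18, 4.10 and the floor in female IVF embryos and at the floor, 7.17 and 7.16 in male IVF embryos. The fusion clones had 6.77, 6.15, 8.37 and 7.04, and the injection clones 7.88, 6.40, 4.10 and 5.19. The probe was higher in fusion clones than in female IVF embryos by 2.99 (SE 0.50, adjusted p = 0.0216, limma), whereas male IVF embryos 2 and 3 reached the level of the clones and the difference over 14 arrays was 1.39 (adjusted p = 0.168, limma). The call in fusion clones was lost without fusion clone 1 or 4 or female IVF embryo 1 or 3 (adjusted p from 0.0517 to 0.0612). The dimmer *Brdt* probe did not pass in any comparison, with a difference of 0.04 over 14 arrays.

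**Figure D2:**
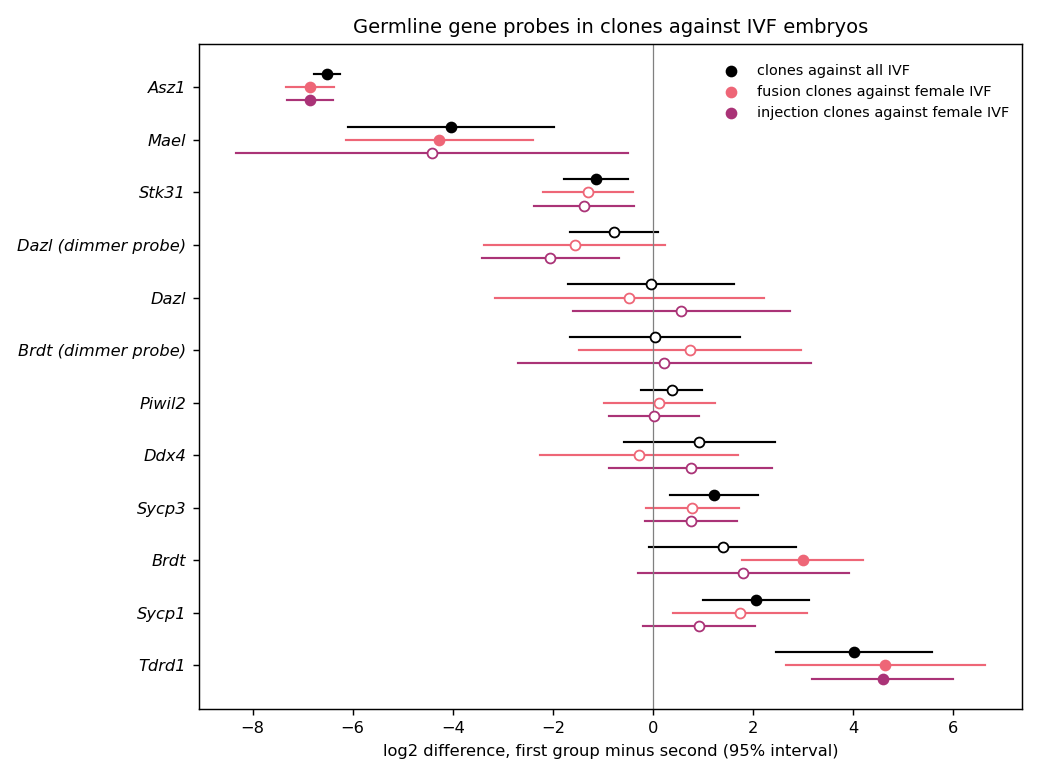
Differences on the log2 scale with 95% intervals for the 12 tested probes, for all clones against all IVF embryos (black) and for fusion clones (pink) and injection clones (purple) against female IVF embryos. Filled points passed an adjusted p of 0.05 and open points did not, and the black points run from -6.51 in *Asz1* to 4.01 in *Tdrd1*.

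No probe passed the test between the methods of nuclear transfer. Of the 11 probes tested in fusion against injection clones, 0 were called by limma and 0 had an unadjusted p below 0.05, against 0 called and 6.16% below an unadjusted 0.05 among all probes. The interval of the difference was narrow for *Sycp3* (-0.73 to 0.79) and *Piwil2* (-0.69 to 0.91) and wide for *Mael* (-3.50 to 3.79), so that for *Mael* a large difference was not detectable with 4 embryos a group. *Asz1* was dim in both groups and could not be compared. Against female IVF embryos, 2 of 12 probes were called lower and 2 higher in fusion clones (background 5.15% and 4.34%), and 1 lower and 1 higher in injection clones (background 2.1% and 1.51%). The methods apply a 2-fold filter and do not say whether p was adjusted. With an unadjusted p below 0.05 and a 2-fold difference, 4 probes were lower in injection clones (*Asz1*, *Mael*, *Stk31* and the dimmer *Dazl* probe; background 7.12%). Male and female IVF embryos differed in 0 of 12 probes by limma, and 1, the dimmer *Dazl* probe, had an unadjusted p below 0.05 (background 0.0313% lower and 0.0282% higher, and 7.76% at the unadjusted level). It also differed by over 2-fold at that level, lower in males (background 2.85%). Deviations of male and female embryos with the same replicate number were weakly correlated (0.108, 0.128 and 0.109). Fusion and injection clones 3 had 0.105, and the other clone pairs -0.05 to -0.0109. With the number as a block the 19 calls among all probes became 0, but the block also leaves fewer degrees of freedom.

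Other genes of the same pathways were read from lists, in the comparison of clones with all IVF embryos and with 1 probe a gene. The counts of each list stand beside 13.1% lower and 9.16% higher over all probes. Of 19 other genes of the piRNA pathway and nuage, 1 was lower and 1 higher. *Gpat2*, a mitochondrial protein needed for piRNAs, fell by 1.31 on the log2 scale (adjusted p = 0.0182, limma) and *Tex19.1*, a germline protein that restrains transposons, rose by 1.07 (adjusted p = 0.00491, limma, with outlier spots missing on 1 or more arrays). *Tdrd12* differed by 2.85 (adjusted p = 0.100) and the co-chaperone *Fkbp6* by 0.73 (adjusted p = 0.0749), and neither passed. The list's median difference was 0.02.

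Of 23 tested genes that act on meiotic chromosomes, 4 were lower in clones and 0 higher, against 13.1% lower and 9.16% higher over all probes. The list's median was -0.48, against -0.07 over all probes. At an unadjusted p below 0.05 there were 10, against 34.3% of all probes. *Stag3*, a meiotic cohesin subunit, fell by 1.66 from a mean of 13.04 in IVF embryos (adjusted p = 0.0211, limma). *Tex15*, needed for repair of meiotic breaks, fell by 2.32 (adjusted p = 0.0208), *Msh5*, a crossover factor, by 2.17 (adjusted p = 0.0289, with an outlier spot missing in 1 clone) and *Spo11*, the enzyme that cuts DNA in meiosis, by 0.78 (adjusted p = 0.0262), all by limma and all with clone means below 5.4, near the floor.

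Among 11 tested late spermatid genes, only *Tnp1*, which replaces histones in sperm, was called, lower by 0.67 and near the floor (adjusted p = 0.00980, limma). *Tnp2* differed by -0.39, *Spaca1* by 1.098 and *Prm1* by 0.91, with adjusted p from 0.258 to 0.364.

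Of 19 repressors of germline genes and enzymes that remove DNA methylation, 7 were lower and 3 higher in clones, against 13.1% and 9.16% of all probes. The shares were larger among bright probes. With an IVF mean of 10 to 12, 20.7% were lower and 13.8% higher, and at 12 or more 23.7% and 13.2%. The IVF means of *Tet3*, *Setdb1* and *Dnmt3b* were 10.94, 11.82 and 15.76. *Tet2*, an enzyme that oxidizes methylated cytosine, rose by 3.23 (SE 0.52, adjusted p = 0.00165, limma), from a mean of 9.27 in IVF embryos, while the related *Tet3* fell by 1.57 (adjusted p = 0.00259, limma). *Dnmt3b*, a *de novo* DNA methyltransferase, fell by 1.97 (adjusted p = 0.000158, limma) and *Setdb1*, a histone H3K9 methyltransferase, by 1.72 (adjusted p = 0.000311, limma). The median over the list was 0.05.

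**Figure D3:**
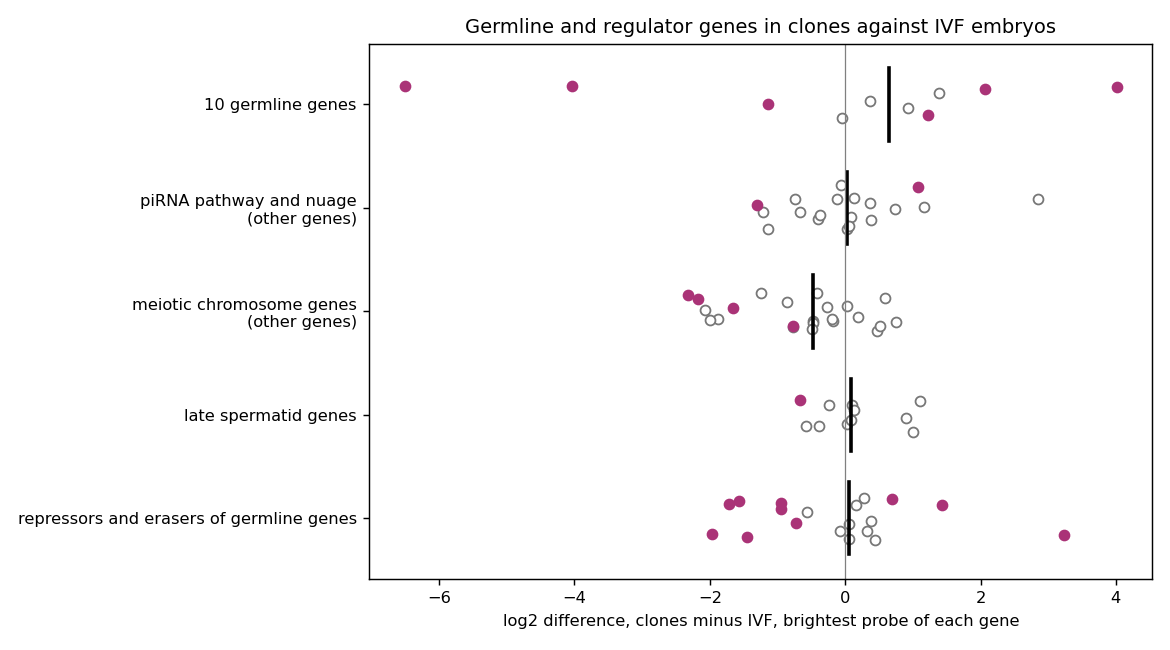
Difference between clones and IVF embryos on the log2 scale, for the brightest probe of each tested gene of the 10 germline genes and of 4 gene lists. Filled points passed an adjusted p of 0.05 and open points did not, and black bars mark medians, which run from -0.48 in the meiotic list to 0.65 in the 10 genes.

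The 5 genes whose levels followed *Asz1* most closely included none of the other 9 germline genes. Over the 14 arrays the highest Pearson correlations with *Asz1*, among 18107 probes, belonged to *Foxa2* (0.997), *Fosl2* (0.986), *Nckap1l* (0.972), *Adprh* (0.967) and *Xlr5c* (0.967). *Mael* reached 0.787, at rank 1172, *Stk31* 0.766, at rank 1390, and *Tdrd1* -0.846. By Spearman correlation *Foxa2* was again first (0.968) and *Mael* rose to rank 75 (0.879). All arrays of a group share a slide and the clones a scanner, so the correlations describe mainly the split of clones from IVF embryos.

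*Foxa2*, a transcription factor of the primitive endoderm, was at the floor in all 8 clones and between 9.93 and 11.40 in IVF embryos, at least 103-fold lower. *Foxa2* and the genes below were picked for following *Asz1* on these same arrays. Their split between clones and IVF embryos is therefore no separate result. *Nckap1l*, a regulator of actin in blood cells, lay between 8.56 and 10.66 in IVF embryos and at the floor in all fusion clones. *Xlr5c*, an X-linked gene of a family expressed in germ cells, lay between 10.35 and 11.85 in IVF embryos and between the floor and 6.36 in clones. *Adprh*, an enzyme that removes ADP-ribose, showed the same order of groups over a small range, 15.42 to 15.76 in IVF embryos and 13.87 to 14.54 in clones.

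Some markers of cell lineages also differed between clones and IVF embryos. Of 6 primitive endoderm genes 3 were called lower in clones (*Foxa2*, *Gata4* and *Sox7*; 13.1% over all probes) and 0 higher, although *Gata6*, another early marker, differed by 0.26 and did not pass (adjusted p = 0.370, limma). The median difference over the 6 genes was -3.21, against -0.07 over all probes, and 11 of 12 tested probes had a negative difference. On each clone array 2 to 5 of the 6 genes were well above background, and on each IVF array 5 or 6. The summed linear intensity of the list, which gives most weight to the brightest genes, ran from 61429 to 160779 in clones and from 65159 to 142282 in IVF embryos. *Cdx2* and *Krt18*, 2 of 6 trophectoderm genes, were lower by 0.60 and 0.56, with sums from 635710 to 918739 in clones and from 862280 to 1012080 in IVF embryos, and *Nanog*, 1 of 5 epiblast genes, was higher by 1.02. Of 13 oocyte genes 0 were called (2 at an unadjusted p below 0.05, limma), with sums from 6414 to 10920 in clones and from 8183 to 10020 in IVF embryos. Of 14 cumulus genes *Amh* and *Foxl2* were lower, which is near the share over all probes, and the sums ran from 278 to 1768 in clones and from 988 to 3143 in IVF embryos. The counts of each marker list stand beside 13.1% lower and 9.16% higher over all probes. The part of any of these markers in the levels of the germline genes was not tested.

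*Asz1* lies on chromosome 6, between *Wnt2* and *Cftr*, and some of its neighbours were lower in clones too. Neighbours were looked at after the values were seen. Within 500 kb of the gene, 13 probes of 6 genes were tested, and 5 were lower and 0 higher in clones. *Cftr*, the chloride channel gene 61626 bp away, was well above background on all 6 IVF arrays and on no clone array by its brighter probe, and was at least 5.96-fold lower (adjusted p = 2.06e-05, limma). Of *Cttnbp2*, a cortactin-binding protein gene 257410 bp away, 3 of 4 probes fell by between 1.71 and 2.90 on the log2 scale (adjusted p from 0.000244 to 0.00420). *Met*, a growth factor receptor gene 476984 bp away, fell by 2.71 by 1 probe (adjusted p = 0.0402) and differed by -0.77 by the other tested one (adjusted p = 0.202).

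The other 3 genes in this window did not pass. *Wnt2*, 18192 bp from *Asz1*, was well above background on 2 of 6 IVF arrays and no clone array (adjusted p = 0.246, limma), and the brighter probes of *St7* and *Capza2*, which were well above background on all 14 arrays, differed by -0.25 and 0.06. The neighbours that were lower had IVF means between 5.73 and 7.85, and 4.33% of all tested probes with an IVF mean below 6 and 16.2% of those between 6 and 8 were lower in clones. Around *Mael*, 3 of 20 tested probes were lower and 0 higher, and around *Stk31* 6 were lower and 2 higher of 17, against 13.1% lower and 9.16% higher over all probes. The 6 included both probes of *Fam221a*, 5601 bp from *Stk31*, which fell by 1.21 and 1.40 from IVF means of 12.58 and 13.25, and of all tested probes with an IVF mean of 12 or more 23.7% were lower. Around *Tdrd1*, 1 of 27 was lower and 6 were higher, and around *Sycp1* 3 were lower and 6 higher of 18. Around *Sycp3*, 3 were lower and 4 higher of 22. Around *Piwil2*, which was not called itself, 7 were lower and 4 higher of 32. Around *Ddx4*, 1 was lower and 1 higher of 15, around *Dazl* 1 lower and 0 higher of 7, and around *Brdt* 0 of 18 were called. A link between the genes and their neighbours was not tested.

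**Figure D4:**
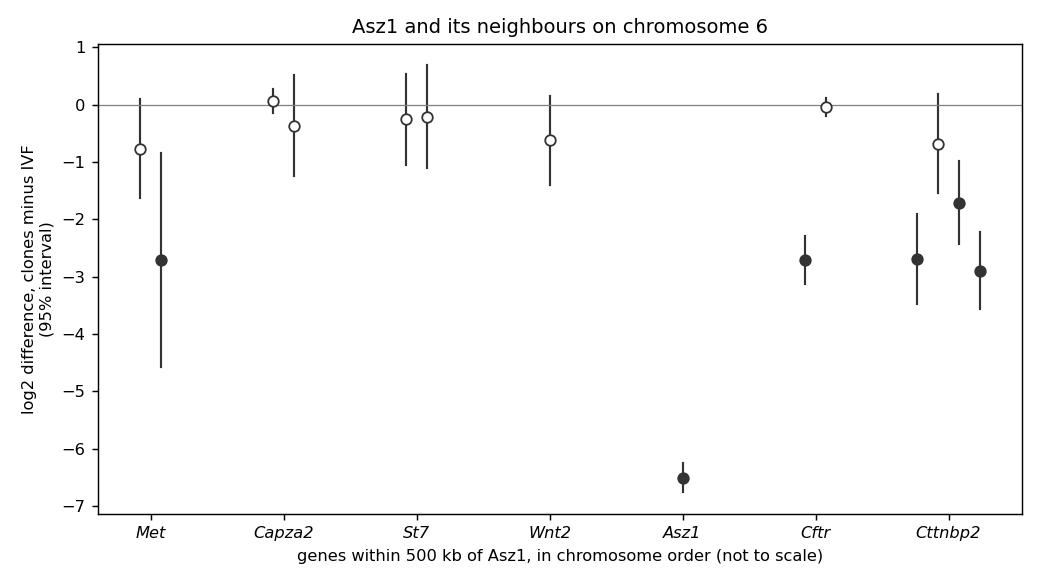
Difference between clones and IVF embryos on the log2 scale, with 95% intervals, for each tested probe of *Asz1* and of the genes within 500 kb, in chromosome order and not to scale. Filled points passed an adjusted p of 0.05 and open points did not. *Asz1* fell by 6.51, *Cftr*, *Cttnbp2* and *Met* each have at least 1 filled point below 0, and *Capza2*, *St7* and *Wnt2* have none.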

How the data were processed

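The authors deposited the Feature Extraction output of 14 arrays, whose processed signal intensity is linear and background-subtracted. Their deposited log2 table of these arrays served only as an alternative. Gene spots (41174 probes) were used without outlier spots, quantile-normalized over the 14 arrays and kept at 16 or more. Values are log2, with the spots of each probe averaged. Testing required a signal well above background on at least 1 array compared, and used limma 3.58.1 (lmFit and eBayes, R 4.3.3) with Benjamini-Hochberg adjustment over all tested probes. The tests were tried on simulated data. The brightest probe stands for a gene. Where 1 side was well above background on no array, the fold is a lower bound, taken per array against the higher of the probe's value and the lowest value well above background. Gene names and positions come from RefSeq (GRCm38.p6), and positions of probes were not used. Every probe of the 10 genes is reported. From each list at most 4 genes are named, the called ones with the largest difference or else those with the smallest p. The genes, lists, tests and floor were chosen with earlier results of these data known, and the motifs and the neighbours after the values were seen. Deviations of male and female IVF embryos with the same replicate number were weakly correlated (0.108, 0.128 and 0.109). The block by number changed no call of the 10 genes between them, while over all probes 19 calls became 0. Alternatives were another scaling, background correction, floor, filter, fit and threshold, and leaving out each array. The number of arrays limits the precision.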

Additional observations from a re-analysis of the deposited data

Results flagged for a closer look

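The dimmer *Dazl* probe was at 5.97 in fusion clone 3 and at the floor in the other 3 fusion clones. Of 21 groups of 4 clones examined over the 13 probes, this embryo was the only sample flagged as apart from its group. The other 3 values were tied at the floor, so any value above the floor would have been flagged. About 1.05 flags were expected by chance, but that number takes no account of ties at the floor. Whether this embryo differed from its group can therefore not be decided from the flag.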

How the results depend on the processing

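*Asz1* was called lower in clones under every alternative but the replicate block, with adjusted p = 0.0951 in fusion and 0.141 in injection clones, and no difference turned its direction while called. Against female IVF embryos, the 2 probes called higher in fusion clones became 1 with normexp background, a floor of 1, the table of log2 values from the authors, or all 4 groups in the fit, and 0 at a floor of 32. The 2 called lower became 1 with all 4 groups in the fit. With the replicate block, 0 were called lower and 0 higher in either clone group, and of all probes 0. Clones share only a number with IVF embryos. Injection clones had 2 called lower with all 4 groups and 4 at an unadjusted p of 0.05 with 2-fold, at which male and female IVF embryos had 1. Against female IVF embryos only, 1 probe instead of 3 was higher in clones and 4 instead of 3 were lower, the dimmer *Dazl* probe being added (-1.81, adjusted p = 0.0343). The highest correlation with *Asz1* was 0.968 by Spearman. Leaving out 1 array gave 1 to 2 lower and 0 to 1 higher in fusion clones, 1 to 2 and 0 to 1 in injection clones, 0 between fusion and injection clones and between the sexes, and 3 to 4 and 2 to 3 in all clones. The cause of these changes was not tested. Of the other results for single probes, 620 of 647 stayed on their side of the threshold, with the same sign where called, under the alternative settings, and 465 of 494 when an array was left out. With the table of the authors the median over all probes moved from -0.12 to 0.05 in fusion clones and from -0.07 to 0.12 in all clones. The slide and scanner cannot be told apart from cloning, and values at the floor have no order.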
